A study of Mus musculus with 62 samples.

Results

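The 10 genes described here encode parts of the IL-6 family pathway to STAT3 and were chosen by name from the 47643 genes of the expression table. They are the ligands Il6 and Lif, the receptor chains Il6ra, Il6st, Lifr and Osmr, the kinase Jak2, the transcription factor Stat3, and Socs3 and Pim1, which STAT3 induces. Their RNA was measured by RNA-seq in diaphragm muscle from 62 female mice with a labelled age of 2 months. Cachectic mice (CAC) carried flank xenografts of human melanoma cells that cause wasting, non-cachectic mice (NCAC) carried xenografts of melanoma cells that do not, and control mice received a mock injection of saline. Diaphragms were taken 2, 4, 6 and 8 weeks after injection from 5 mice per group, with 7 cachectic mice at 8 weeks. Each kind of melanoma was 1 patient-derived tumor stock, so cachexia and other properties of that stock cannot be told apart. The study's methods describe all groups as NCI Ath/nude mice, which lack a thymus, whereas the sample labels give the strain as C57BL6/J. None of 7 T cell marker genes reached 1 TPM in 5 mice. Of the 62 libraries, Cd3e, a subunit of the T cell receptor complex, was at 0 in 32, Cd3d in 35, Cd8a in 29 and Cd8b1 in 51. Cd3g was at 0 in only 6, and Cd4 and Trac in 1 each. Which strain was used was not tested with these values.

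Cytokines of the IL-6 family signal through receptors that share the chain gp130, the product of Il6st. IL-6 binds gp130 together with the IL-6 receptor (Il6ra), LIF binds it together with the LIF receptor (Lifr), and oncostatin M binds it together with the oncostatin M receptor (Osmr) or the LIF receptor. Receptor-bound JAK kinases then phosphorylate STAT3, which enters the nucleus and induces genes that include Socs3, an inhibitor of gp130 and JAK signaling, and Pim1, a serine/threonine kinase that promotes survival and growth. In skeletal muscle, prolonged activity of this pathway is known for its part in wasting, and phosphorylation of STAT3 is not seen in RNA.

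Expression is given in TPM, a measure of transcript abundance already scaled for transcript length and for the total of each library, so levels can be compared between genes. Sequencing depth was unknown from these values. Muscle genes such as Acta1 and Ckm dominated every library, with a summed level of 8 skeletal muscle markers between 32424 and 90823 TPM. Few genes were detected in 4 libraries. At 2 weeks these were replicate 5 of the non-cachectic mice and replicates 3 and 4 of the cachectic mice, and at 8 weeks replicate 3 of the cachectic mice. In these, 15069 to 16389 genes were above 0 and mitochondrial genes took 54.4% to 61.5% of all TPM, against 17909 to 19057 genes and 32.5% to 50.1% in the other 58. Some values that change with these libraries are given without them as well. More members were called in several comparisons without these libraries, so a value that did not pass with all mice may pass without them. The closing section gives the counts. In whole diaphragm, fewer cells of a type and less RNA per cell cannot be told apart.

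Of the 10 genes, 8 passed a filter on low values, and 4 of these rose in the cachectic diaphragm. Il6 and Lif did not pass it and are described apart. Socs3 was higher at 4, 6 and 8 weeks, Osmr at 6 and 8 weeks, and Stat3 and Pim1 at 6 weeks, by an adjusted p under 0.05 in limma, a linear model fitted to log2(TPM + 1) across all genes. Of the 8 members that passed the filter on low values (at least 1 TPM in at least 5 mice), 1 was called higher at 4 weeks, 4 at 6 weeks and 2 at 8 weeks, where 0.0147%, 5.62% and 6.65% of the 13578 genes tested were called higher. Against non-cachectic mice, 1 member was higher at 4 weeks (0.0295% of all genes), 2 at 6 weeks (4.28%) and 2 at 8 weeks (6.75%). Both sets of comparisons share the cachectic mice. At 2 weeks against non-cachectic mice limma called 0 of 8 members and 0 of all genes, with an unadjusted p under 0.05 for Jak2 alone. Dunn's test, which uses ranks and the 12 conditions, called 0 members in each of these comparisons. Scaling moved the balance of calls over all genes: 763 genes were higher and 159 lower at 6 weeks with TPM as deposited, and 467 higher and 545 lower after scaling by median ratios.

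**Figure D1:**
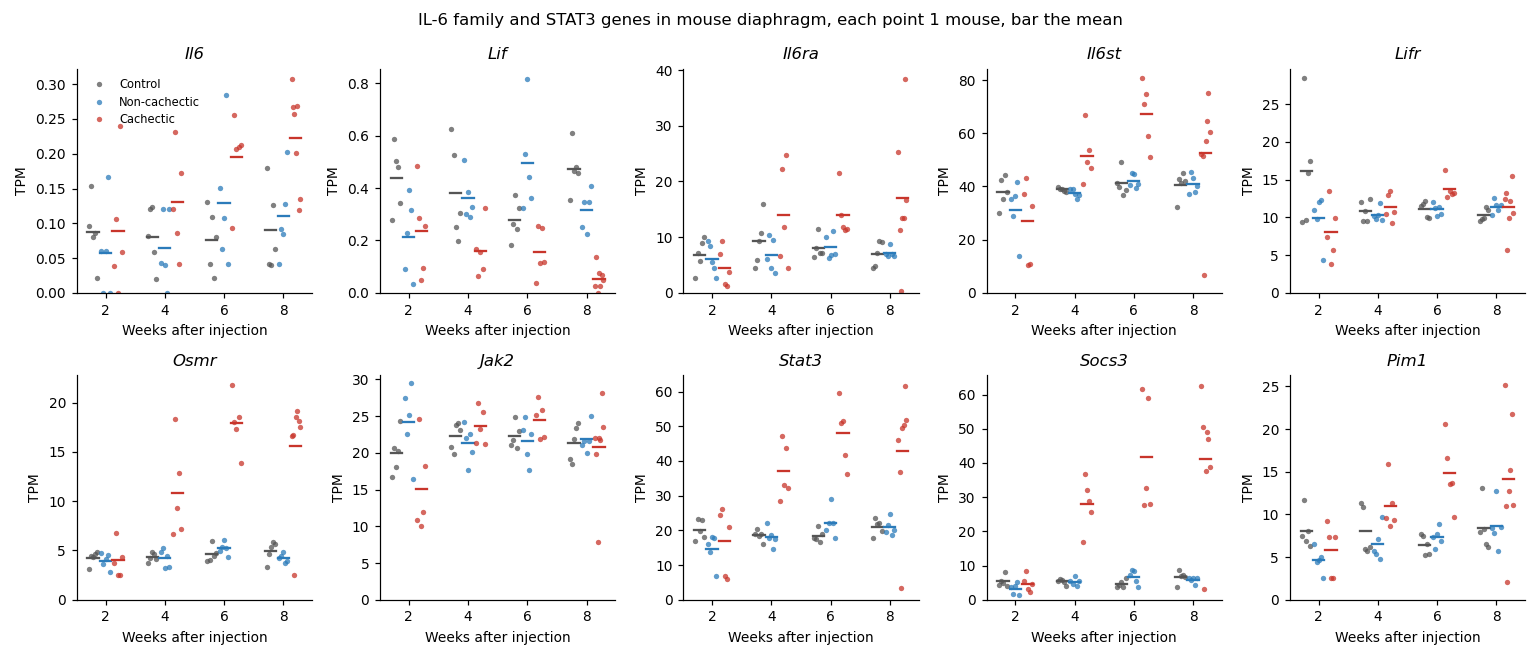
Expression of the 10 members in TPM on linear axes from 0 (vertical) against weeks after injection (horizontal), with each point 1 mouse, bars for group means, and control, non-cachectic and cachectic mice in gray, blue and red. Socs3, Osmr and Stat3 of cachectic mice lie above both other groups at 4 and 6 weeks, and at 8 weeks in 6 of 7 mice, while Lif lies below the control mice at 8 weeks in 7 of 7.

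In control mice at 8 weeks, Il6st was the most abundant member with 40.7 ± 4.90 TPM (SD, n = 5). It was followed by Jak2 with 21.4 ± 2.50 TPM and Stat3 with 21.0 ± 2.25 TPM, which did not differ beyond their spread. Lifr (10.3 ± 0.807 TPM), Pim1 (8.40 ± 2.75 TPM), Il6ra (6.98 ± 2.25 TPM), Socs3 (6.66 ± 1.79 TPM) and Osmr (4.95 ± 1.05 TPM) came next, with each range of values overlapping that of its neighbor in this order. The ligands were lowest, with 0.474 ± 0.0915 TPM for Lif and 0.0902 ± 0.0606 TPM for Il6, and their ranges did not overlap. In cachectic mice at 8 weeks the order differed: Il6st (52.5 ± 21.7 TPM, n = 7) was followed by Stat3 (42.8 ± 18.9 TPM) and Socs3 (41.2 ± 18.8 TPM), then by Jak2 (20.7 ± 6.25 TPM), Il6ra (17.0 ± 11.98 TPM), Osmr (15.6 ± 5.86 TPM), Pim1 (14.1 ± 7.60 TPM) and Lifr (11.3 ± 3.11 TPM).

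Both ligands were near the bottom of what these libraries measure. Il6 did not exceed 0.307 TPM and Lif did not exceed 0.816 TPM in any of the 62 mice, so neither passed the filter, and their comparisons come from a fit to all 23900 genes above 0 in at least 1 mouse. Lif, known for its action on stem cells and on muscle repair, was lower in the cachectic diaphragm at 8 weeks. In control mice at 8 weeks Lif was at 0.356, 0.612, 0.465, 0.480 and 0.457 TPM, and in cachectic mice it ranged from 0 through a median of 0.050 to 0.138 TPM, so that 7 of 7 cachectic mice were below every control mouse, as for 3.82% of the 13578 genes above the filter. The difference was -0.48 on the log2(TPM + 1) scale (SE 0.08, adjusted p = 1.56e-05, limma), where 5.05% of the 23900 genes were called lower. Against non-cachectic mice Lif differed by -0.37 at 6 weeks (SE 0.08, adjusted p = 0.00567, limma) and by -0.32 at 8 weeks (SE 0.08, adjusted p = 0.00412, limma), where 0.929% and 3.87% of genes were called lower. Against control mice Lif did not pass at 2, 4 or 6 weeks (-0.23, -0.25 and -0.15, adjusted p = 0.0558, 0.496 and 0.402, limma). Non-cachectic mice themselves differed from control mice by 0.22 at 6 weeks and by -0.16 at 8 weeks, where 4 of 5 were below every control mouse, without passing (unadjusted p = 0.0112 and 0.0548, adjusted p = 1.00 and 1.00, limma). Il6 was higher, at a lower level: cachectic mice at 8 weeks ranged from 0.119 through a median of 0.257 to 0.307 TPM and control mice from 0.0407 through 0.0630 to 0.179 TPM. Its difference was 0.16 against control mice (SE 0.05, adjusted p = 0.0237, limma, 4.23% of genes called higher) and 0.14 against non-cachectic mice (SE 0.05, adjusted p = 0.0745, limma). At such levels the pseudocount of 1 compresses differences, and these calls exist only without the filter.

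Among the receptor chains Osmr rose, and Il6ra, Il6st and Lifr did not pass the test at any week from 4 to 8 with all libraries given equal weight in 1 fit. Differences between the chains were not tested. With libraries weighted by quality, Il6ra passed against control mice at 6 and 8 weeks (0.72 and 1.06, adjusted p = 0.0277 and 0.00230, limma), Il6st at 4, 6 and 8 weeks (0.32, 0.75 and 0.51, adjusted p = 0.0216, 1.01e-08 and 2.44e-05, limma) and Lifr at 6 weeks (0.28, adjusted p = 0.0269, limma). These 3 chains also passed at 6 weeks in a fit to only the mice compared (adjusted p = 0.0165, 0.00408 and 0.0282, limma). Osmr lies on chromosome 15 (6813577 to 6874969, minus strand, GRCm38). At 4 weeks Osmr was at 6.65, 18.3, 9.30, 12.9 and 7.15 TPM in cachectic mice, 3.72 to 4.87 TPM in control mice and 3.25 to 5.22 TPM in non-cachectic mice. The cachectic mice were above all others at this week, and the difference from control mice was 1.07 on the log2 scale without passing the threshold (SE 0.26, adjusted p = 0.111, limma). At 6 weeks the cachectic values were 21.8, 18.0, 17.3, 18.5 and 13.8 TPM against 3.90 to 5.93 TPM in control mice. The rise was 1.75 over control mice (SE 0.26, adjusted p = 6.61e-06, limma) and 1.60 over non-cachectic mice (SE 0.26, adjusted p = 3.98e-05, limma), when the median of all genes stood at 0.17 and 0.14. At 8 weeks, 6 cachectic mice were between 16.6 and 19.1 TPM and replicate 3, one of the libraries with few genes, was at 2.47 TPM, below the 3.29 to 5.90 TPM of the control mice. Osmr was 1.33 higher than in control mice at this week (SE 0.24, adjusted p = 6.68e-05, limma) and 1.68 higher without replicate 3.

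Il6st, the shared signal-transducing chain, was the most abundant receptor gene. Its values at 4 weeks were 41.0, 66.7, 49.0, 53.9 and 47.0 TPM in cachectic mice and 37.8 to 40.0 TPM in control mice, and at 6 weeks 80.6, 71.0, 74.7, 58.9 and 51.0 TPM against 36.8 to 49.2 TPM. The groups did not overlap at either week, yet the differences of 0.38 (adjusted p = 1.00, limma) and 0.68 (adjusted p = 0.224, limma) did not pass. At 8 weeks 6 of 7 cachectic mice (51.3 to 75.3 TPM) were above all control mice (32.3 to 45.0 TPM) and replicate 3 was at 6.77 TPM. With all 7 mice the difference was 0.13 (SE 0.30, adjusted p = 0.843, limma). Without replicate 3 it was 0.55 (adjusted p = 0.0666, limma), and without the 4 libraries with few genes it was 0.55 with an adjusted p of 7.88e-05 (limma).

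Il6ra, the chain that gives cells their response to IL-6, varied widely among cachectic mice. Its cachectic values at 8 weeks were 25.4, 11.4, 0.341, 13.5, 13.4, 38.4 and 16.6 TPM, with 6 of 7 above the control range of 4.51 to 9.24 TPM and replicate 3 below it. The difference was 0.75 with all mice (SE 0.44, adjusted p = 0.284, limma) and 1.30 without replicate 3 (adjusted p = 0.00583, limma). Lifr stayed within narrow bounds from 4 weeks on: control and non-cachectic mice spanned 9.46 to 12.5 TPM over these weeks. Cachectic mice reached 12.7 to 16.2 TPM at 6 weeks, just above the control range of 9.90 to 12.2 TPM, with a difference of 0.29 (SE 0.22, adjusted p = 0.490, limma), and at 8 weeks the difference was 0.09 (SE 0.20, adjusted p = 0.837, limma), or 0.23 without replicate 3 (adjusted p = 0.480, limma).

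At 4 weeks the cachectic values of 4 members, Il6st, Osmr, Stat3 and Socs3, lay above all control mice and also above all non-cachectic mice, with no overlap. Among all tested genes 4.91% lay above all control mice and 5.52% above all non-cachectic mice. The share that did both was not counted. At 6 weeks 6 members did so against control mice, those 4 with Lifr and Pim1, where 15.9% of all genes did.

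The ratio of Osmr to Lifr in each mouse sets a receptor chain that rose beside one that did not pass with equal weights. This ratio of TPM values was 0.479 ± 0.0769 (SD, n = 5) in control mice at 8 weeks, 0.373 ± 0.0381 in non-cachectic mice (n = 5) and 1.33 ± 0.464 in cachectic mice (n = 7). From 4 to 8 weeks the 30 control and non-cachectic mice lay between 0.309 and 0.597, while cachectic mice lay between 0.635 and 1.42 at 4 weeks and between 1.05 and 1.42 at 6 weeks. Cachectic replicate 3 at 8 weeks was at 0.438, within the range of the other groups. Its ratio of Osmr to Il6st, 0.364, was however the highest of all 62 mice, where the 30 control and non-cachectic mice of 4 to 8 weeks lay between 0.0878 and 0.137. No test was made on these ratios.

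**Figure D2:**
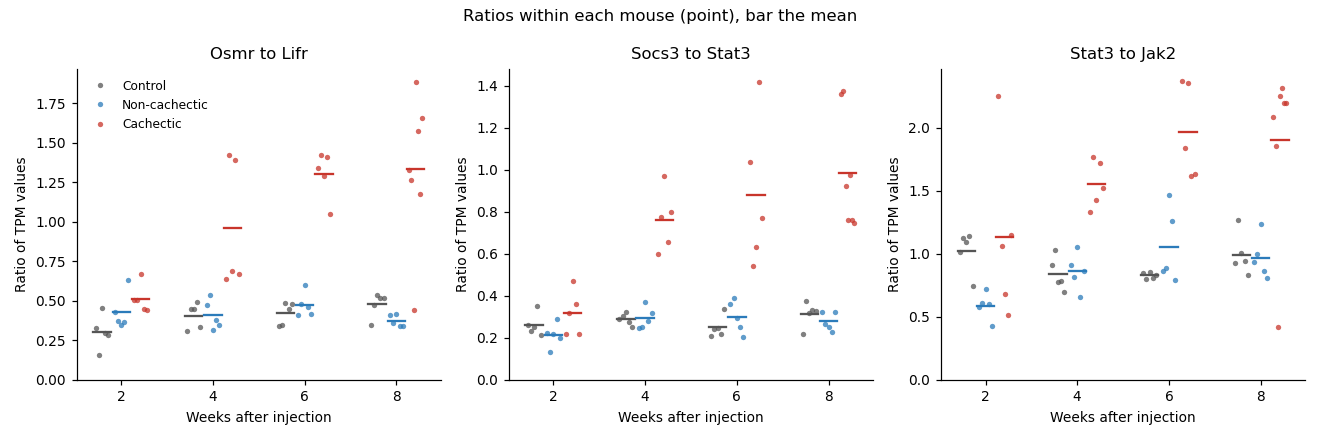
Ratios of TPM values within each mouse (vertical, linear axes from 0) for Osmr to Lifr, Socs3 to Stat3 and Stat3 to Jak2 against weeks after injection, with each point 1 mouse and bars for group means. Ratios of Socs3 to Stat3 in cachectic mice from 4 to 8 weeks, 0.543 to 1.42, lie above the 0.392 that was the highest among the 40 control and non-cachectic mice.

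Jak2, a kinase bound to gp130, did not pass the test at 4, 6 or 8 weeks. Its group means from 4 to 8 weeks were 20.7 to 24.5 TPM in cachectic mice and 21.3 to 22.3 TPM in the other groups, and its differences from control mice were 0.08, 0.13 and -0.11 at 4, 6 and 8 weeks (SE 0.18, 0.18 and 0.17), with adjusted p = 1.00, 0.734 and 0.731 (limma). Without cachectic replicate 3 the Jak2 difference at 8 weeks was 0.09 (adjusted p = 0.724, limma). Stat3 lies on chromosome 11 (100885098 to 100939540, minus strand). At 4 weeks it was at 28.4, 47.3, 33.2, 43.8 and 32.2 TPM in cachectic mice, 16.1 to 20.4 TPM in control mice and 14.7 to 22.1 TPM in non-cachectic mice. All 5 cachectic mice were above both other groups, and the difference from control mice was 0.94 (SE 0.36, adjusted p = 0.645, limma), an adjusted p that was 8.72e-06 without the 4 libraries with few genes. At 6 weeks Stat3 was at 59.5, 50.9, 51.5, 41.7 and 36.2 TPM against 16.8 to 21.2 TPM in control mice, a rise of 1.31 (SE 0.36, adjusted p = 0.0174, limma). Against non-cachectic mice at 6 weeks (17.8 to 29.1 TPM) the difference was 1.07 (SE 0.36, adjusted p = 0.0676, limma). At 8 weeks 6 of 7 cachectic mice were between 36.8 and 61.7 TPM, above the 17.7 to 23.5 TPM of the control mice, and replicate 3 was at 3.29 TPM. Its difference at 8 weeks was 0.68 with all mice (SE 0.34, adjusted p = 0.182, limma) and 1.18 without replicate 3 (adjusted p = 4.79e-05, limma).

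The ratio of Stat3 to Jak2 in TPM was 0.994 ± 0.168 in control mice at 8 weeks (SD, n = 5) and 1.90 ± 0.671 in cachectic mice (n = 7). The ratio of Stat3 to Stat5b, another STAT gene of muscle, was 0.588 ± 0.0394 and 1.52 ± 0.338. These ratios were described and not tested.

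Socs3, the feedback inhibitor, was the member with the largest differences at 4, 6 and 8 weeks and the one called at the earliest of these weeks. It lies on chromosome 11 (117966079 to 117970047, minus strand). At 4 weeks its values were 17.0, 36.6, 32.2, 28.8 and 25.7 TPM in cachectic mice, 5.49, 6.14, 5.91, 5.16 and 4.02 TPM in control mice, and 5.48, 4.49, 6.95, 4.14 and 5.51 TPM in non-cachectic mice. Every cachectic mouse was above every control and non-cachectic mouse of that week. The rise was 2.16 over control mice (SE 0.38, adjusted p = 0.00646, limma) and 2.18 over non-cachectic mice (SE 0.38, adjusted p = 0.00284, limma). The call against control mice rested on cachectic replicate 2, the highest value: without it the difference was 2.06 with adjusted p = 0.0599 (limma).

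At 6 weeks Socs3 reached 61.7, 27.7, 32.6, 59.1 and 27.9 TPM in cachectic mice, against 3.67 to 6.41 TPM in control mice and 3.61 to 8.68 TPM in non-cachectic mice. The values fell into a pair near 60 TPM and 3 mice near 30 TPM, and the rise over control mice was 2.85 (SE 0.38, adjusted p = 1.06e-06, limma). At 8 weeks the cachectic mice were at 62.5, 50.5, 3.04, 37.6, 49.1, 47.0 and 38.7 TPM, the low value again being replicate 3, and control mice at 3.85 to 8.75 TPM. The rise was 2.17 over control mice (SE 0.35, adjusted p = 1.03e-05, limma) and 2.32 over non-cachectic mice (SE 0.35, adjusted p = 4.97e-06, limma), and without replicate 3 it was 2.68 and 2.83. In a fit to only the cachectic and control mice of 8 weeks neither Socs3 (adjusted p = 0.0541) nor Osmr (adjusted p = 0.0888) passed in limma. In replicate 3 both Socs3 and Stat3 were low and their ratio, 0.923, was the median of the 7 cachectic mice (0.748 to 1.37), against 0.218 to 0.373 in control mice. Whether the difference from control mice itself changed between weeks was tested as a contrast. From 4 to 6 weeks it changed by 0.69 for Socs3 (SE 0.53, unadjusted p = 0.203, limma, fitted over all genes) and by 0.68 for Osmr (SE 0.37, unadjusted p = 0.0707, limma), and from 6 to 8 weeks by -0.68 and -0.42. The latter values rest on cachectic replicate 3 at 8 weeks, and without it they were -0.17 for Socs3 and -0.071 for Osmr. By limma, 0 members and 0 of all 13578 genes passed in either contrast after adjustment, and 0 members had an unadjusted p under 0.05. With libraries weighted by quality, 4 members passed in the change from 4 to 6 weeks.

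Pim1 lies on chromosome 17 (29490753 to 29496112, plus strand). At 6 weeks it ranged from 9.72 to 20.5 TPM in cachectic mice and from 5.25 to 7.65 TPM in control mice, a rise of 1.06 (SE 0.32, adjusted p = 0.0282, limma) with no overlap. Against non-cachectic mice (5.93 to 8.82 TPM) the difference was 0.89 (adjusted p = 0.0817, limma). At 8 weeks Pim1 ranged from 2.08 through a median of 12.8 to 25.1 TPM against 6.19 through 7.99 to 13.0 TPM in control mice, and only 3 of 7 cachectic mice were above all control mice. The difference was 0.50 with all mice (adjusted p = 0.277, limma) and 0.84 without replicate 3 (adjusted p = 0.00801, limma). The call of Pim1 at 6 weeks was lost when any of 5 mice was left out, cachectic replicates 1 and 2 and control replicates 3, 4 and 5 (adjusted p = 0.121, 0.0677, 0.0620, 0.0529 and 0.0748, limma), and that of Stat3 when cachectic replicate 1 was left out (adjusted p = 0.0673, limma).

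STAT dimers bind the motif TTCNNNGAA, which reads the same on both strands. RefSeq promoter windows (250 bases before to 50 after a start, GRCm38.p6) matched all 10 members with 12 windows, and 1 of the 12, that of Socs3, held the motif, which 8.30% of all 32851 windows hold. The stretches upstream of the RefSeq start of 3 members that were higher at 6 weeks are shown, cut where an annotated exon of the same gene begins, with the motif in capitals. The stretches are chr11:117969452-117969616 (minus strand) for Socs3, chr11:100939541-100939790 (minus strand) for Stat3 and chr17:29490535-29490752 (plus strand) for Pim1. The Socs3 stretch lies inside the span that GENCODE gives the gene, whose 5′ end is further upstream, and outside its annotated exons. Osmr is not shown because its whole window lies in an annotated exon.
Socs3: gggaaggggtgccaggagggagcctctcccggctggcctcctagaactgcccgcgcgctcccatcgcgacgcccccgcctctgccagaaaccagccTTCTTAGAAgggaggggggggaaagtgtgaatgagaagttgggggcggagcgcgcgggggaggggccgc
Stat3: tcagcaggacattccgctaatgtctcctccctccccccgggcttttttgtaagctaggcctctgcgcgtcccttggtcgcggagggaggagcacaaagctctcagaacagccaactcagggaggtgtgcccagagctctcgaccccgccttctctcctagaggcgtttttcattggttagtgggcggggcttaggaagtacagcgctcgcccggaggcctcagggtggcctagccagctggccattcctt
Pim1: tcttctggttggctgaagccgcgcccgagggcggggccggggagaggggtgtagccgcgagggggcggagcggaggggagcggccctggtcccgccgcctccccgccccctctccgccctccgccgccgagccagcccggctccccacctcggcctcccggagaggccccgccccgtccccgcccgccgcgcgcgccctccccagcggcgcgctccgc
The match in Socs3 begins 154 bases before the RefSeq start. It describes letters in a window and not a bound site, and the windows of Stat3 and Pim1 hold no such run of letters.

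**Figure D3:**
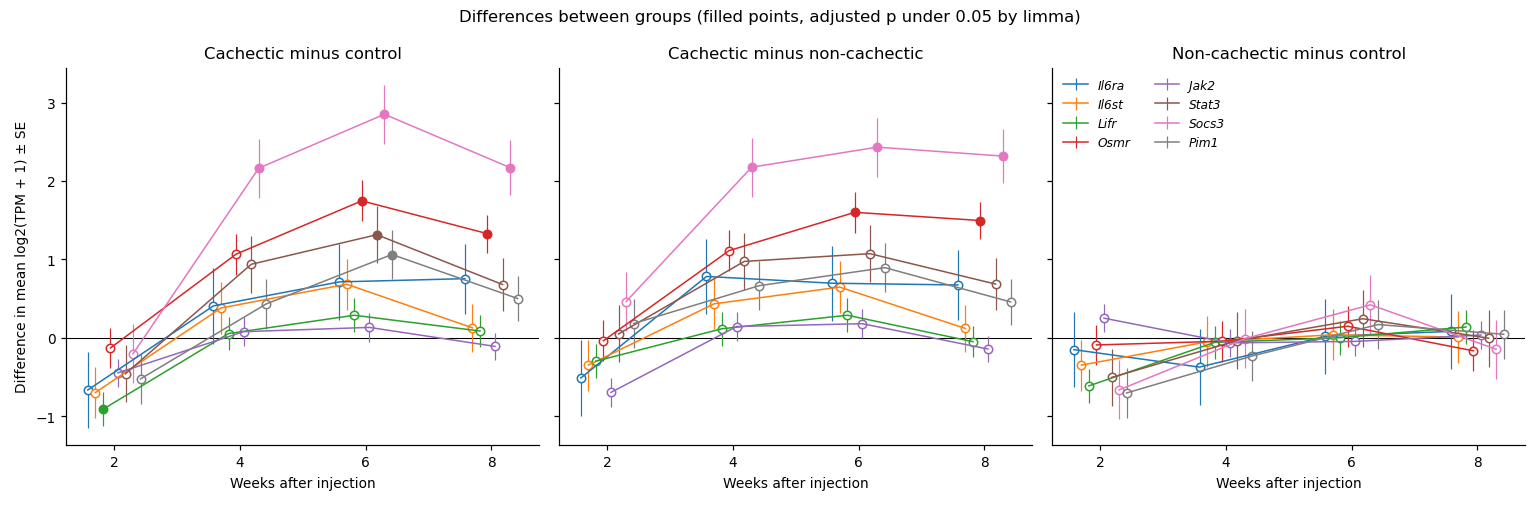
Differences between group means of log2(TPM + 1) with SE (vertical) for the 8 members that passed the filter against weeks after injection (horizontal), for cachectic against control, cachectic against non-cachectic and non-cachectic against control mice, with filled points for an adjusted p under 0.05 by limma. In the left panel Socs3 (2.16 to 2.85) and Osmr (1.07 to 1.75) lie highest from 4 weeks, when Jak2 and Lifr lie between -0.11 and 0.29. At 2 weeks Lifr is lowest there, a filled point at -0.91, and Jak2 is at -0.45. The right panel has no filled point.

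At 2 weeks Lifr was the 1 member called, and it was lower in cachectic than in control mice, at 7.35, 13.5, 3.80, 5.68 and 9.92 TPM against 9.41, 28.5, 9.63, 15.8 and 17.4 TPM. The difference was -0.91 (SE 0.22, adjusted p = 0.00618, limma), when 27.8% of all genes were called lower and the median of all genes was -0.42. Scaling changed the balance of all genes at this week: 192 were higher and 3781 lower as deposited, 1217 higher and 1169 lower after scaling by median ratios, and 1549 higher and 627 lower after quantile normalization. Liver genes and library quality move with it. Control replicates 2, 4 and 5, which hold the 3 highest Lifr values, also had the highest levels of 10 liver genes such as Alb in that group, which summed to 8.35 to 25800 TPM in control mice against 48.4 to 3684 TPM in cachectic mice, and the 2 lowest Lifr values among the cachectic mice are those of the libraries with few genes. Without the 4 libraries with the highest liver genes the difference was -0.32 (adjusted p = 0.509, limma), and without the 4 libraries with few genes it was -0.53 (adjusted p = 0.182, limma). The call was also lost without cachectic replicate 3 or without control replicate 2 (adjusted p = 0.0632 and 0.0646, limma).

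Among the 8 members that passed the filter, none was called between non-cachectic and control mice. Their differences from control mice lay between -0.38 and 0.42 at 4, 6 and 8 weeks. At each of these weeks limma called 0 of 8 members and 0 of all genes, with 0 members at an unadjusted p under 0.05. Dunn's test called 0 members as well. It did so in every comparison of groups, also where limma called members, so this 0 cannot show a lack of difference. At 2 weeks limma also called 0 of 8 members, where 4.43% of all genes were called, while Lifr and Pim1 had an unadjusted p under 0.05 (-0.62 and -0.71). For Socs3 at 8 weeks, non-cachectic mice were at 4.21 to 6.46 TPM and control mice at 3.85 to 8.75 TPM.

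Further genes of the pathway were taken from 7 lists of other ligands, receptors, kinases, STAT factors, inhibitors, STAT3 target genes and Pim kinases, with 64 of 71 genes tested. In all 7 lists together and against control mice, 16 were higher and 0 lower at 6 weeks, when 5.62% of all genes were called higher and 1.17% lower. At 8 weeks 14 were higher and 4 lower, when 6.65% of all genes were called higher and 8.12% lower. By limma 0 passed at 4 weeks, when 13 had an unadjusted p under 0.05, 11 of them higher. Without the 4 libraries with few genes, 5, 30 and 27 of the 64 were higher and 1, 2 and 8 lower at 4, 6 and 8 weeks. Calls over all genes were not counted in that fit, so its counts have no share beside them. Most of the genes that rose were STAT3 targets, 13 of 25 at 6 weeks and 11 of 25 at 8 weeks, with 1 lower. Their median difference was 0.42 at 4 weeks, 1.04 at 6 weeks and 0.74 at 8 weeks, against 0.04, 0.17 and -0.09 over all genes. Without the 4 libraries with few genes, 4, 16 and 15 targets were higher at 4, 6 and 8 weeks, with 0, 1 and 1 lower. At 2 weeks 5 of the 25 targets and 22 of the 64 pathway genes were lower by limma, where 27.8% of all genes were, and 0 targets and 0 pathway genes were lower without the 4 libraries with few genes. In non-cachectic mice limma called 0 of the 25 at 4, 6 and 8 weeks, and 0 had an unadjusted p under 0.05.

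**Figure D4:**
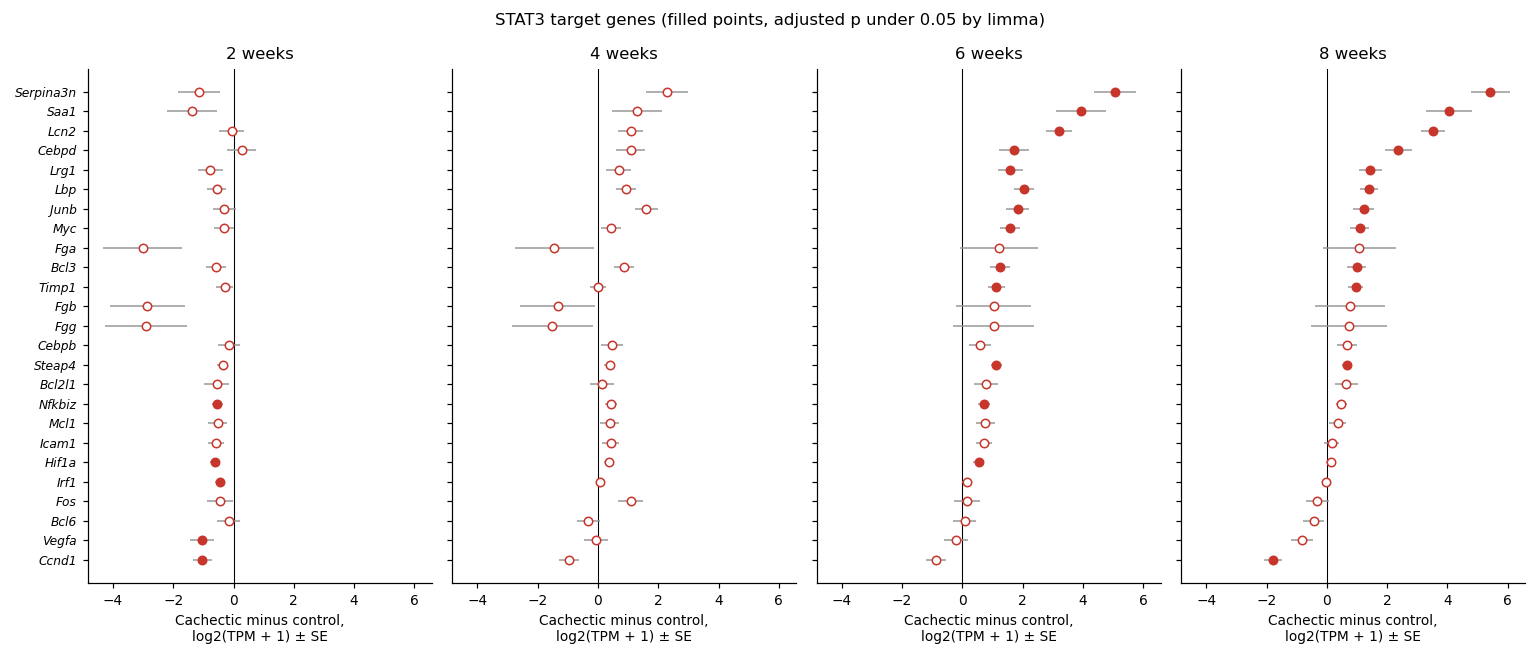
Differences of the 25 tested STAT3 target genes between cachectic and control mice (horizontal, log2(TPM + 1) with SE) at 2, 4, 6 and 8 weeks, ordered by the difference at 8 weeks, with filled points for an adjusted p under 0.05 by limma. Filled points to the right of 0 number 13 at 6 weeks and 11 at 8 weeks, with none at 4 weeks, and Ccnd1 is the filled point to the left at 8 weeks.

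The 3 targets with the largest rise at 8 weeks were Serpina3n, Saa1 and Lcn2. Serpina3n, a serine protease inhibitor gene, ranged from 18.4 through 614 to 1062 TPM in cachectic mice at 8 weeks and from 4.08 to 10.1 TPM in control mice, a rise of 5.42 (SE 0.64, adjusted p = 2.68e-08, limma). Lcn2, which encodes the iron-siderophore carrier lipocalin 2, ranged from 5.19 through 65.3 to 83.3 TPM against 1.83 to 4.00 TPM, a rise of 3.52 (SE 0.39, adjusted p = 6.46e-09, limma). For both genes even the lowest cachectic mouse was above every control mouse. They were named for the size of this same difference, so the lack of overlap is not separate support. The share of all genes higher without overlap at 8 weeks is not given here.

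Saa1, a serum amyloid A gene, rose by 4.06 at 8 weeks (SE 0.77, adjusted p = 0.000118, limma). Its cachectic values at 8 weeks were 91.0, 422, 3.38, 7.61, 5.99, 14.7 and 7.43 TPM, and control mice did not exceed 0.325 TPM. Liver genes moved with its highest values: Alb, the albumin gene, was at 163 and 1022 TPM in the cachectic mice with 91.0 and 422 TPM of Saa1, and at 0 to 33.1 TPM in the other 5. Of those 5, replicate 3, the library with few genes, had the 33.1 TPM of Alb. In all 5 Saa1 was above every control mouse. The part of liver RNA in the values of Saa1 was not tested. Saa1 and Serpina3n each have close paralogs whose reads could be shared.

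Ccnd1, which encodes the cell cycle regulator cyclin D1, was the 1 target that fell, from 7.18 to 13.0 TPM in control mice to 0.905 to 3.86 TPM in cachectic mice at 8 weeks, with no overlap (-1.79, SE 0.30, adjusted p = 2.19e-05, limma). At that week 3.82% of the 13578 genes tested were lower without overlap.

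The other parts of the pathway moved less. Of 4 tested ligands, Cntf, which encodes ciliary neurotrophic factor, rose by 0.68 at 8 weeks (SE 0.20, adjusted p = 0.0123, limma) from 4.23 ± 0.980 TPM in control mice to 7.56 ± 2.45 TPM. Ctf1, which encodes cardiotrophin 1, fell by 0.53 (SE 0.13, adjusted p = 0.00292, limma) from 9.52 ± 0.527 to 6.32 ± 1.01 TPM. At that week 6.65% of all genes were called higher and 8.12% lower. Osm, which encodes the oncostatin M that Osmr receives, is named here after its values were seen, and its cachectic mice at 8 weeks ranged from 0 to 0.485 TPM and control mice from 0.0676 to 0.425 TPM, below the filter.

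Of 9 other receptor genes, 2 rose at 6 and at 8 weeks, when 5.62% and 6.65% of all genes were called higher. Both encode chains of the IL-4 and IL-13 receptors. Il4ra was at 16.8 ± 6.78 TPM in cachectic mice at 8 weeks and 7.03 ± 1.54 TPM in control mice (0.97, SE 0.31, adjusted p = 0.0254, limma), and Il13ra1 at 10.04 ± 3.57 and 5.51 ± 0.974 TPM (0.71, SE 0.17, adjusted p = 0.00202, limma). Among 5 tested STAT factors, Stat5a fell by 1.00 at 8 weeks (SE 0.25, adjusted p = 0.00382, limma). Of 16 tested inhibitors and other regulators 1 was lower at 8 weeks, a share under the 8.12% of all genes: Adam17, the protease that sheds the IL-6 receptor among other proteins, fell by 0.78 (SE 0.15, adjusted p = 0.000204, limma). In the same list Ptpn2, a phosphatase of JAK and STAT proteins, rose by 0.41 at 6 weeks (SE 0.12, adjusted p = 0.0264, limma), where 5.62% of all genes were called higher. Without the 4 libraries with few genes the 8-week differences were -0.75 for Stat5a, -0.64 for Adam17, 0.78 for Cntf, -0.50 for Ctf1, 1.35 for Il4ra and 0.85 for Il13ra1, all with an adjusted p under 0.05 in limma. Neither Jak1, Jak3 and Tyk2 nor Pim2 and Pim3 passed at 6 or 8 weeks.

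Some markers of other cell types were also higher at 6 and 8 weeks, when 5.62% and 6.65% of all genes were called higher. The summed level of 8 macrophage markers at 8 weeks was 267 through 751 to 1159 TPM in cachectic mice and 283 through 391 to 583 TPM in control mice, and 3 of the 8, Mrc1, C1qa and C1qb, rose. The summed level of 7 neutrophil markers was 9.23 through 27.9 to 74.8 TPM against 4.39 through 10.8 to 15.2 TPM, and 2 of the 4 tested, S100a8 and Retnlg, rose. Among 6 fibro-adipogenic markers, Dcn and Ly6a rose and Col1a1 and Col3a1 fell at 8 weeks, when 8.12% of all genes were called lower. Of 6 endothelial markers 1 was lower at that week, and 0 of 5 adipocyte and 0 of 4 B cell markers passed in limma. The adipocyte sum was then 259 through 541 to 2291 TPM in cachectic mice and 108 through 161 to 610 TPM in control mice. At 6 weeks Mrc1, C1qb, Dcn and Ly6a rose and 0 of the 4 tested neutrophil markers passed in limma. At 4 weeks the macrophage sum was 269 through 323 to 374 TPM in cachectic mice and 294 through 401 to 1807 TPM in control mice, the neutrophil sum was 9.43 to 24.8 TPM against 11.6 to 26.4 TPM, and the fibro-adipogenic sum was 767 to 1392 TPM against 902 to 1115 TPM. By limma 0 macrophage, neutrophil or fibro-adipogenic markers passed at 4 weeks, and Ly6a alone among them had an unadjusted p under 0.05 (0.76, unadjusted p = 0.00266). The part of these cells in the differences at 4, 6 and 8 weeks was not tested.

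The genes whose means over the 12 conditions were most like those of Stat3, Osmr and Socs3 were found by Pearson correlation of mean log2(TPM + 1), as a description over 12 points that share libraries. For Stat3 they were Anxa7, Ets2 and Tnfrsf1a (r = 0.992, 0.992 and 0.991), for Osmr Cyb561, Cops6 and Psmc1 (r = 0.991, 0.989 and 0.989), and for Socs3 Atp9a, Ggt5 and Map1lc3b (r = 0.993, 0.987 and 0.980). Map1lc3b encodes the autophagosome protein LC3B and Psmc1 a subunit of the proteasome. Atp9a, a P-type ATPase gene, was at a mean of 107 TPM in cachectic and 27.9 TPM in control mice at 8 weeks. Among the members themselves, Socs3 was most like Osmr (r = 0.979) and Stat3 (r = 0.968), and least like Jak2 (r = 0.254) and Lifr (r = 0.397).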

How the data were processed

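Diaphragm RNA from 62 mice was sequenced by the authors as paired reads on a NovaSeq instrument with an Illumina TruSeq library kit, whose name differs between the sample labels and the study's methods. Reads were aligned to the mouse genome with CLC Genomics Workbench per the methods, and the labels' processing notes name the build mm10. The expression values deposited by the authors are TPM, 1 value for each gene in each mouse, from that program's RNA-Seq Analysis tool. TPM keeps no read counts, so no count model, interval or detection floor could be given, and a gene that takes a larger share of a library lowers the values of all others.

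Values were analysed as log2(TPM + 1), keeping the 13578 genes that reached 1 TPM in 5 or more mice. A linear model with 12 condition means, in limma 3.58.1 under R 4.3.3, used all 62 mice and a prior variance that follows the mean. It gave 12 comparisons of groups within a week and 2 contrasts of differences between weeks. Adjustment of p-values was by Benjamini and Hochberg over all genes tested, and a gene was called at an adjusted p under 0.05. The fit was also run on simulated data with independent noise, where each gene had the same spread in every mouse. Those data held no libraries with few genes, so they cannot show how the fit behaves with such libraries. The members, gene lists and rules were chosen with earlier results of these data known, so no count over them is independent support. All members were named. From each other list, genes called between cachectic and control mice at 8 weeks were ranked by their difference, and the top 3 in each direction were named, or all called genes where a list had 5 or fewer. Marker lists of other cell types were used for checks. Nothing in the labels says more of the replicates than that they are separate samples, and no pair of libraries held identical values. Promoter windows and sequences are RefSeq's, and gene positions and exons are GENCODE's for GRCm38. Protein sequences were not used here.

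Alternatives were a pseudocount of 0.1, no filter, scaling by median ratios or quantiles, TPM rescaled without mitochondrial genes, weights for library quality, blocking on the replicate number, Dunn's test, a fit to only the groups compared, a log2 fold threshold of 1, a liver covariate, and leaving out libraries.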

Additional observations from a re-analysis of the deposited data

Results flagged for a closer look

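In 13 of the 120 groups of mice (10 genes in 12 conditions) the highest or lowest mouse stood apart from the others of its group by Dixon's criterion, where chance alone marks about 1 in 20 groups. Of these, 7 belong to 1 library, cachectic replicate 3 at 8 weeks, in which 15263 genes were above 0 and mitochondrial genes took 57.1% of all TPM. It was the lowest of the 7 cachectic mice for Il6ra (0.341 TPM, others 11.4 to 38.4), Il6st (6.77 TPM, others 51.3 to 75.3) and Osmr (2.47 TPM, others 16.6 to 19.1). It was also the lowest for Jak2 (7.84 TPM, others 19.8 to 28.1), Stat3 (3.29 TPM, others 36.8 to 61.7), Socs3 (3.04 TPM, others 37.6 to 62.5) and Pim1 (2.08 TPM, others 11.0 to 25.1).

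Lifr was lowest, at 4.38 TPM, in non-cachectic replicate 5 at 2 weeks, another library with few genes (others 9.71 to 12.3), and highest, at 16.2 TPM, in cachectic replicate 1 at 6 weeks (others 12.7 to 13.4). In that last mouse Il6 was lowest, at 0.0926 TPM (others 0.207 to 0.255), while Socs3 and Stat3 were at their highest of the group. Il6ra was highest, at 8.86 TPM, in non-cachectic replicate 3 at 8 weeks (others 6.55 to 6.99). Among control mice, Il6st was lowest in replicate 1 at 8 weeks (32.3 TPM, others 41.3 to 45.0) and Osmr was lowest in replicate 1 at 2 weeks (3.07 TPM, others 4.36 to 4.87).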

How the results depend on the processing

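Of 169 values for the 13 called pairs of member and comparison under settings other than leaving out 1 mouse, 149 kept their call. Counts of called members against control mice at 2, 4, 6 and 8 weeks were 1, 1, 4 and 2, and against non-cachectic mice at 4, 6 and 8 weeks 1, 2 and 2. Dunn's test called 0 in each. A fit to only the groups compared called 0, 2, 7 and 0 against control mice and 2, 7 and 1 against non-cachectic mice. Array quality weights called 4, 7 and 6 at 4, 6 and 8 weeks against control mice, 4, 6 and 6 against non-cachectic mice, 1 between non-cachectic and control mice at 2 weeks and 4 in the change from 4 to 6 weeks. Median-ratio scaling called 2 at 4 weeks and 4 at 8 weeks against control mice, 3, 5 and 4 against non-cachectic mice, and 1 (Jak2) between non-cachectic and control mice at 2 weeks. Quantile normalization called 2, 3 and 4 at 2, 4 and 8 weeks against control mice, 3, 4 and 4 against non-cachectic mice, and the same 1 at 2 weeks, and it reversed Osmr at 2 weeks to 0.44 (adjusted p = 0.0423, limma). Without the 4 libraries with few genes 0, 3 and 6 were called at 2, 4 and 8 weeks against control mice and 4, 5 and 6 against non-cachectic mice, and without the 4 highest in liver genes 0 at 2 weeks. No filter gave 4 at 8 weeks, a fold threshold gave 0 at 2 weeks, and leaving out mitochondrial genes gave 2 at 4 weeks against non-cachectic mice. Calls over all 13578 genes changed as well. Against control mice at 8 weeks, 903 were higher and 1102 lower in the main fit. They were 1620 and 1651 under median-ratio scaling, and 1479 and 1952 under quantile normalization. At 4 weeks these 3 fits called 2 and 1, 19 and 4, and 38 and 5. No such counts were made for Dunn's test, quality weights, the fit to only the groups compared or fits without libraries. The cause of these changes was not tested. Leaving out 1 mouse gave 0 to 3, 0 to 2, 2 to 4 and 2 to 5 calls against control mice and 0 to 1, 1, 2 and 2 to 5 against non-cachectic mice at 2, 4, 6 and 8 weeks, 0 to 1 between non-cachectic and control mice at 2 weeks, and 0 elsewhere. For STAT3 target genes, settings chosen after seeing the data gave, at 4 weeks, 1 call under median-ratio scaling, 1 under quantile normalization and 4 without the libraries with few genes, against 0, and at 2 weeks 0 under each of these and 0 without the libraries highest in liver genes, against 5. With the replicate number as a block 2 members were called at 2 weeks (Lifr and Jak2), and 8 weeks gave 7 higher and 1 lower STAT3 target. Deviations of mice sharing a number within a week correlated at r = -0.633 to 0.387 over 60 pairs, 18 of them over 0.1, so the numbers were not treated as pairs, although for replicate 3 at 8 weeks all 3 pairs lay between 0.252 and 0.387. Across the 112 pairs of member and comparison, 34 that were not called differed in sign under some setting other than leaving out 1 mouse. The TPM values carry no depth, so precision at low levels, as for Il6 and Lif, is unknown.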
